A study of Mus musculus with 14 samples.

Results

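Lysosomal hydrolases and membrane proteins were followed in the livers of mice fed a high-fat diet, 24 h after an injection of mesenchymal stem cells (MSCs) or saline. The group comprised 33 genes that were listed by name: 11 proteases, 8 glycosidases, 6 proteins that handle lipids, 6 membrane proteins and 2 regulators. Each of the 33 had exactly 1 probe set that named it alone, out of 19938 genes measured in this way, and none had a second probe set. The male C57BL/6 mice were 24 weeks old and had been on the high-fat diet for 20 weeks, whether they then received MSCs (HFM, n = 7) or saline (HFS, n = 7). The MSCs were human bone marrow cells from a single donor and were given into the tail vein, and no lean or uninjected group was analysed here. Values are log2 expression on Affymetrix mouse gene arrays, 1 array per mouse, and every difference below is HFM minus HFS on that scale. Hepatocyte markers fitted the labelled tissue, since Alb (albumin) was at 13.37 to 13.62 in the 14 livers and no hepatocyte marker of the 8 measured fell below 9.20 in any mouse. In whole liver, fewer cells of a type and less RNA per cell cannot be told apart.

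Lysosomes are acidic organelles in which proteases, glycosidases, lipases and other hydrolases break down material from endocytosis, phagocytosis and autophagy. Their membrane is lined by heavily glycosylated proteins such as LAMP1 and LAMP2, and loss of single enzymes or transporters causes lysosomal storage diseases, many of which affect the liver. All cells contain lysosomes, but macrophages, including the Kupffer cells of the liver, are especially rich in them. The transcription factor TFEB activates many lysosomal genes through a sequence known as the CLEAR element, an extended E-box with CACGTG at its centre.

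The E-box stood in the promoters of many of these genes. They were chosen by name and not by sequence, but the CLEAR element is known from lysosomal genes. The share of E-boxes among them is therefore not a result independent of that choice. RefSeq promoters (GRCm38.p6, 250 bases before to 50 after the start site) were at hand for 29 of the 33 genes, all but Ctsb, Ctsh, Asah1 and Npc1. CACGTG, which reads the same on both strands, was in a promoter of 11 of the 29 (37.9%) and of 8.09% of all 27025 genes in the promoter table. The longer core TCACGTGA, which contains the E-box, was found in 4 of the 29 (Ctsa, Ctsd, Gla and Mcoln1), against 1.12% of all genes. GAGGAAGT, a sequence bound by the myeloid factor PU.1, was in 4 of the 29 promoters (Ctsc, Ctss, Gla and Gusb), against 3.69% of all genes. Of the 7 genes that were higher in HFM livers below, 4 held CACGTG, as did 7 of the other 22. Stretches upstream of the start site in those 4 follow, written 5′ to 3′ on the strand of the gene, with each E-box in capitals.
Lamp1 (chr8:13159080-13159160, plus strand): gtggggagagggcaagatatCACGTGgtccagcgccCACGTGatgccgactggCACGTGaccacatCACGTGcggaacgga
Ctsd (chr7:142387900-142387945, minus strand): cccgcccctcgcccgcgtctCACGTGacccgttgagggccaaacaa
Gla (chrX:134601174-134601252, minus strand): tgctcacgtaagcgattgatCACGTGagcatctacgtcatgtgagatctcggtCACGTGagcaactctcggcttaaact
Lgmn (chr12:102439116-102439161, minus strand): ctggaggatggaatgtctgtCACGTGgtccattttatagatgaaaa
Lamp1 held 4 E-boxes within the 81 bases before its start site, where no other of the 29 genes held more than 2. Ctsd held another E-box farther upstream, outside the stretch shown. Median log2 differences were 0.16 in the 11 genes with the E-box and 0.12 in the 18 without it. A match of letters describes the sequence and is not evidence that a factor bound there.

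Most lysosomal genes lay slightly above 0 in HFM against HFS livers, but none passed an adjusted p of 0.05. Of the 33 genes, 30 had a difference above 0 and 3 (Lamp2, Ctsf and Ctsh) a difference below 0, while 51.4% of all probe sets tested lay above 0. The count above 0 was 28 after quantile normalization and 31 with the median of each array subtracted. The median difference was 0.10, against 0.00 over all 23410 probe sets tested, and single genes ran from -0.09 to 0.56. Probe sets brighter than the median included 31 of the 33 genes, and 28 of these were above 0. Their median was 0.10, against 0.02 over all the brighter probe sets. With limma, 7 genes (21.2%) passed an unadjusted p of 0.05 as higher in HFM livers, namely Cd63, Gla, Lamp1, Lgmn, Ctsd, Cd68 and Gusb, and 0 were lower, where 3.57% of all probe sets were higher and 2.90% lower. An exact permutation test put 5 of the 7 under 0.05, all but Cd68 and Gusb, and none as lower, with 3.41% of all probe sets higher and 2.96% lower at that threshold. At the p under 0.01 and 1.2-fold filter of the study's methods, without their Bonferroni correction, 1 gene, Cd63, passed as higher (0.453% of all probe sets) and 0 as lower (0.243%). Adjusted p-values of the 33 genes lay between 0.714 and 0.998 in limma, and no probe set of the array passed 0.05 (0%) in limma or in the exact test. The balance over the array depended on the scaling. Higher probe sets made up 55.2% of those past an unadjusted p of 0.05, 53.7% after quantile normalization and 76.1% once each array was centred on its median. With that centring, 9 of the 33 genes and 5.4% of all probe sets were higher. After quantile normalization it was 5 of the 33 genes, without Cd68 and Gusb, and 3.22% of all probe sets. With 1 mouse left out the count ran from 5 to 13 genes. It was 5 without HFM2, with 2.49% of all probe sets higher, and 13 without HFM5, with 5.4% higher.

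**Figure D1:**
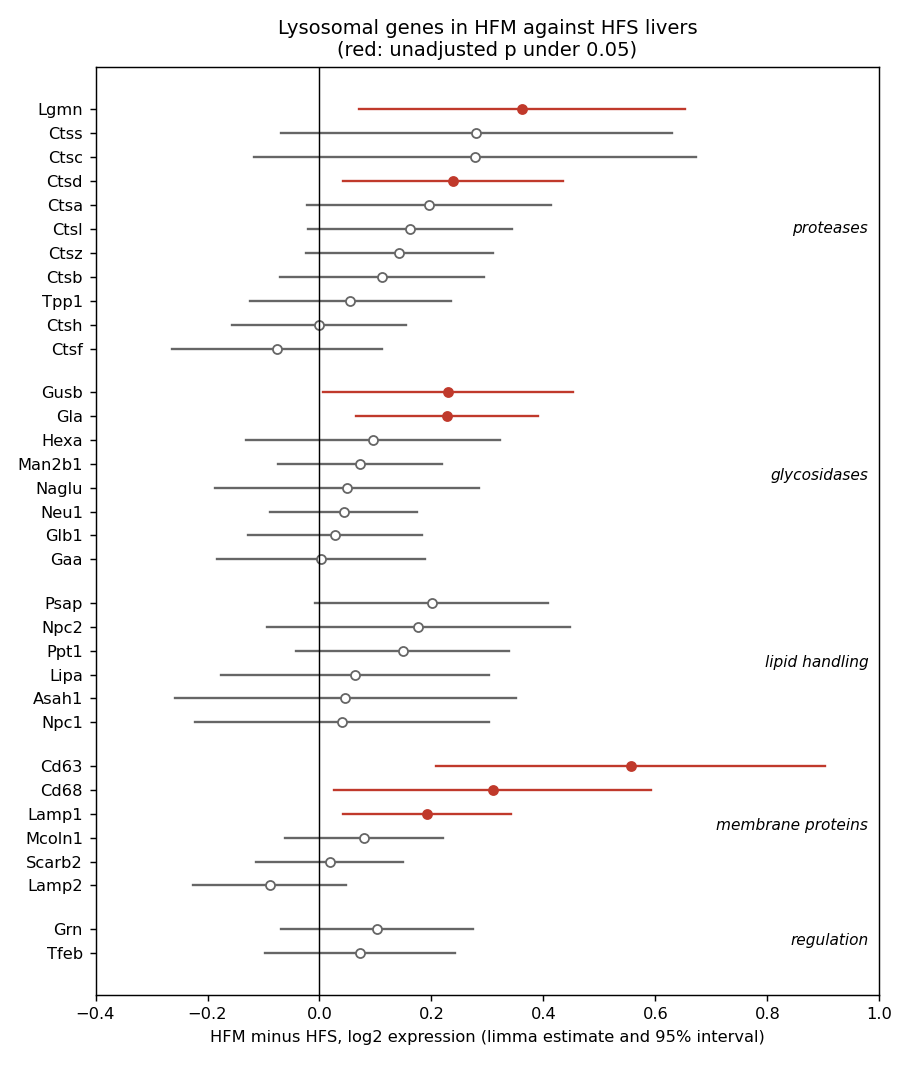
Difference in log2 expression (HFM minus HFS) of the 33 lysosomal genes by role, with limma's estimate as points and its 95% interval as bars, 7 mice per group. Filled red points mark the 7 genes with an unadjusted p under 0.05; 30 of 33 estimates lie above 0, from -0.09 for Lamp2 to 0.56 for Cd63.

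Among the membrane proteins, 3 of 6 were higher at an unadjusted p under 0.05 in limma, where 3.57% of all probe sets were higher. In the exact permutation test 2 of the 6 passed, where 3.41% of all probe sets were higher. Lamp1, the abundant glycoprotein of the lysosomal membrane, ran from 10.19 to 10.60 (median 10.36) in HFM livers and from 9.995 to 10.34 (median 10.25) in HFS livers. It was higher by 0.19 (standard error 0.07; 1.14-fold; limma adjusted p = 0.763; exact permutation test, p = 0.014). For Lamp1, 5 HFM mice lay above every HFS mouse, and only HFM5 lay below the HFS mean. Its sister protein Lamp2, which also serves chaperone-mediated autophagy, had a difference of -0.09 (95% interval -0.23 to 0.05). Cd63, a tetraspanin of late endosomes and exosomes, ran from 2.59 to 4.06 (median 3.28) in HFM and from 2.32 to 2.79 (median 2.70) in HFS livers, with a difference of 0.56 (standard error 0.17; 1.47-fold; adjusted p = 0.714; exact permutation test, p = 0.0117). HFM5 and HFM7 lay within the HFS range for Cd63 and the other 5 HFM mice above it. The probe set of Cd63 was dim, with a mean of 2.92 over 14 mice where the median of the tested probe sets was 4.65. Cd68, a membrane glycoprotein of macrophage lysosomes, was at 6.30 to 7.23 (median 6.85) against 6.25 to 6.77 (median 6.59), a difference of 0.31 (standard error 0.13; adjusted p = 0.770; exact permutation test, p = 0.0763). The groups overlapped more for Cd68, with 4 HFM mice above every HFS mouse and 2 below the HFS mean. Scarb2, which carries beta-glucocerebrosidase to lysosomes, differed by 0.02 (95% interval -0.11 to 0.15) and Mcoln1, the calcium channel of the lysosomal membrane, by 0.08 (-0.06 to 0.22).

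Of the 11 proteases, 9 had a difference above 0, and an unadjusted p under 0.05 was reached by 2, Lgmn and Ctsd, both higher. Over all probe sets tested, 51.4% lay above 0 and 3.57% were higher at that threshold in limma. Lgmn encodes legumain, an endopeptidase that cleaves after asparagine and processes cathepsins and antigens. It ran from 7.48 to 8.38 (median 7.98) in HFM livers and from 7.38 to 8.08 (median 7.45) in HFS livers, higher by 0.36 (standard error 0.14; 1.28-fold; limma adjusted p = 0.767; exact permutation test, p = 0.0466). HFS5 and HFS6 lay among the HFM values for Lgmn, and the other 5 HFS mice lay between 7.38 and 7.53, together with HFM5. Ctsd, the aspartic protease cathepsin D, ran from 8.85 to 9.43 (median 9.32) in HFM and from 8.85 to 9.14 (median 8.94) in HFS livers. Ctsd was higher by 0.24 (standard error 0.09; limma adjusted p = 0.767; exact permutation test, p = 0.0361). Here 5 HFM mice lay above every HFS mouse, and HFM5 and HFM7 below the HFS mean. Among the cysteine proteases, cathepsin S (Ctss), which trims the invariant chain of MHC class II, ran from 6.97 to 8.01 (median 7.57) in HFM and from 6.78 to 7.78 (median 7.12) in HFS livers. Its difference of 0.28 (95% interval -0.07 to 0.63) did not pass, and 1 HFM mouse lay above every HFS mouse. Cathepsin C (Ctsc), which activates the serine proteases of granulocytes and cytotoxic cells, had the widest spread within groups of the 33 genes (pooled SD 0.42). It was at 7.42 to 8.51 (median 7.93) in HFM and 7.31 to 8.44 (median 7.61) in HFS livers, a difference of 0.28 (95% interval -0.12 to 0.67). The widely expressed Ctsb and Ctsl had differences of 0.11 and 0.16, the carboxypeptidases Ctsa and Ctsz of 0.20 and 0.14, the tripeptidyl peptidase Tpp1 of 0.06, the aminopeptidase Ctsh of -0.00 and Ctsf of -0.08, and the interval of each of these 7 spanned 0. Lgmn, Ctss and Cd68 were also in gene categories that the study drew from these samples, so their direction here is not independent of that choice.

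**Figure D2:**
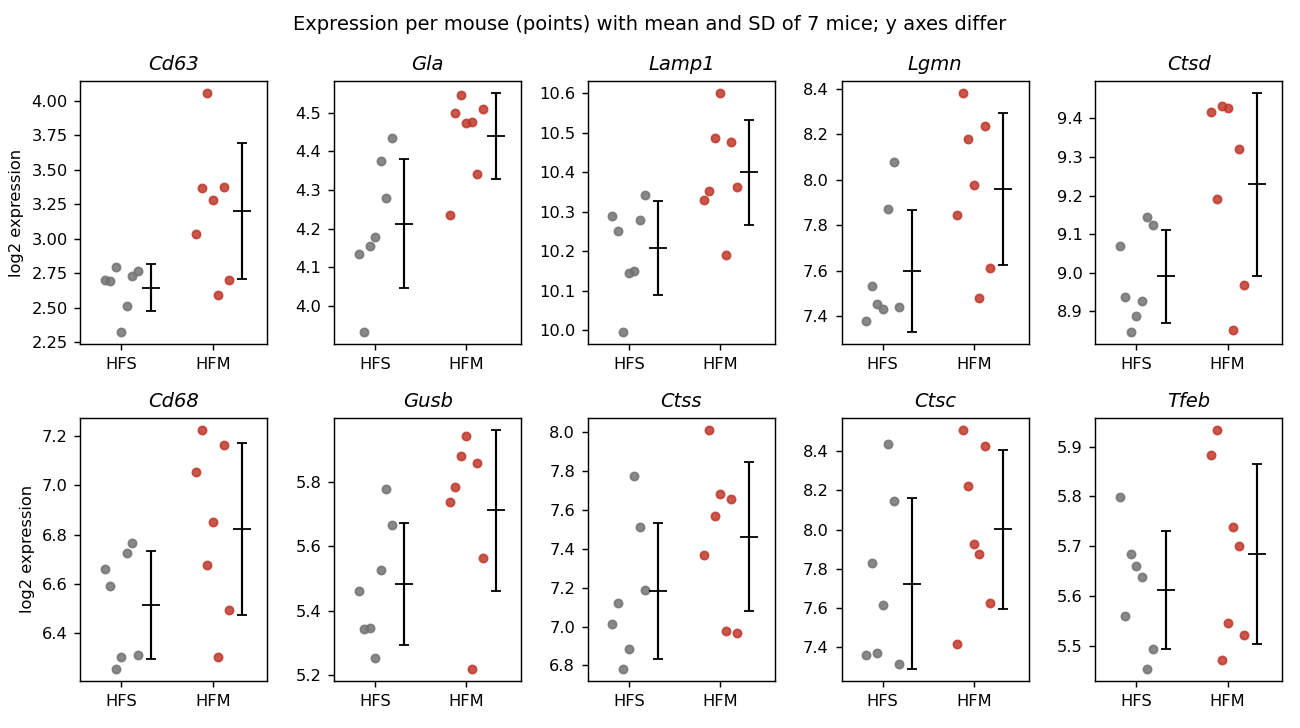
Log2 expression in each mouse (points) of HFS (gray) and HFM (red) livers for the 7 genes with an unadjusted p under 0.05 and for Ctss, Ctsc and Tfeb; bars are the mean and SD of 7 mice, and the y axes differ. The groups overlap for all 10 genes, and for Cd63, Gla, Lamp1 and Ctsd 5 HFM mice lie above every HFS mouse.

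All 8 glycosidases had a difference above 0, where 51.4% of all probe sets did. Gla and Gusb reached an unadjusted p under 0.05 in limma as higher, where 3.57% of all probe sets did, and 1 of the 8, Gla, in the exact permutation test. Gla encodes alpha-galactosidase A, the enzyme that is deficient in Fabry disease. It ran from 4.24 to 4.55 (median 4.48) in HFM livers and from 3.93 to 4.43 (median 4.18) in HFS livers, higher by 0.23 (standard error 0.08; 1.17-fold; limma adjusted p = 0.714; exact permutation test, p = 0.0128). All 7 HFM mice lay above the HFS mean for Gla, and 5 above every HFS mouse. Gla was the other member, beside Cd63, whose probe set was dimmer than the median of the tested probe sets. Gusb, the beta-glucuronidase that degrades glycosaminoglycans, ran from 5.22 to 5.94 (median 5.78) against 5.25 to 5.78 (median 5.46), a difference of 0.23 (standard error 0.11; adjusted p = 0.770; exact permutation test, p = 0.081). HFM5 had the lowest Gusb value of all 14 mice. Hexa, the alpha subunit of the hexosaminidase of GM2 ganglioside, differed by 0.10 (95% interval -0.13 to 0.32). The other 5 glycosidases, Man2b1 (alpha-mannosidase), Naglu (of heparan sulfate breakdown), Neu1 (sialidase), Glb1 (beta-galactosidase) and Gaa (the acid glucosidase of glycogen), had differences of 0.00 to 0.07 with intervals on both sides of 0.

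None of the 6 genes of lipid handling passed an unadjusted p of 0.05, although all 6 estimates were above 0. The nearest was Psap, the precursor of the saposins that present sphingolipids to their hydrolases, at 9.03 to 9.70 (median 9.52) in HFM and 9.04 to 9.42 (median 9.37) in HFS livers, a difference of 0.20 (95% interval -0.01 to 0.41). For Psap, 5 HFM mice lay above every HFS mouse and HFM5 below all of them. Npc1 and Npc2, which hand cholesterol out of the lysosome, had differences of 0.04 (95% interval -0.22 to 0.30) and 0.18 (-0.09 to 0.45). Npc2 had 5 HFM mice above every HFS mouse, and again HFM5, at 5.54, below every HFS mouse. The lipase Lipa, the ceramidase Asah1 and the thioesterase Ppt1 had differences of 0.06, 0.05 and 0.15.

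The regulator Tfeb ran from 5.47 to 5.93 (median 5.70) in HFM and from 5.45 to 5.80 (median 5.64) in HFS livers. Tfeb differed by 0.07 (95% interval -0.10 to 0.24; limma adjusted p = 0.895; exact permutation test, p = 0.387), less than the spread between mice. Grn, the precursor of granulins that supports lysosomal enzymes, differed by 0.10 (95% interval -0.07 to 0.27). The arrays measure RNA, and the location of the TFEB protein in the cell, through which it is mainly controlled, was not measured.

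The 14 mice differed in how many of the 33 genes stood above their mean. The mean of the 33 genes, each relative to its own mean over 14 mice, was 0.07 ± 0.16 (SD, n = 7) in HFM and -0.07 ± 0.06 (n = 7) in HFS mice. HFM6, HFM2, HFM4 and HFM3 stood highest, at 0.22, 0.21, 0.16 and 0.15, with 30, 28, 28 and 25 of the 33 genes above their 14-mouse mean. HFM5 and HFM7 stood at -0.19 and -0.11, with 6 of 33 genes above the mean in each. HFM5 had the lowest value of all mice in 10 genes, and HFM2 the highest in 10. The count was 19 of 33 in HFM1, at 0.04. The HFS mice lay between -0.17 and 0.01, with 8 genes above the mean in HFS3, 11 each in HFS2, HFS4 and HFS7, 14 in HFS5, 16 in HFS1 and 18 in HFS6. Over all probe sets tested, the share above the 14-mouse mean was between 46.1% (HFS5) and 53.1% (HFM3) in every mouse.

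**Figure D3:**
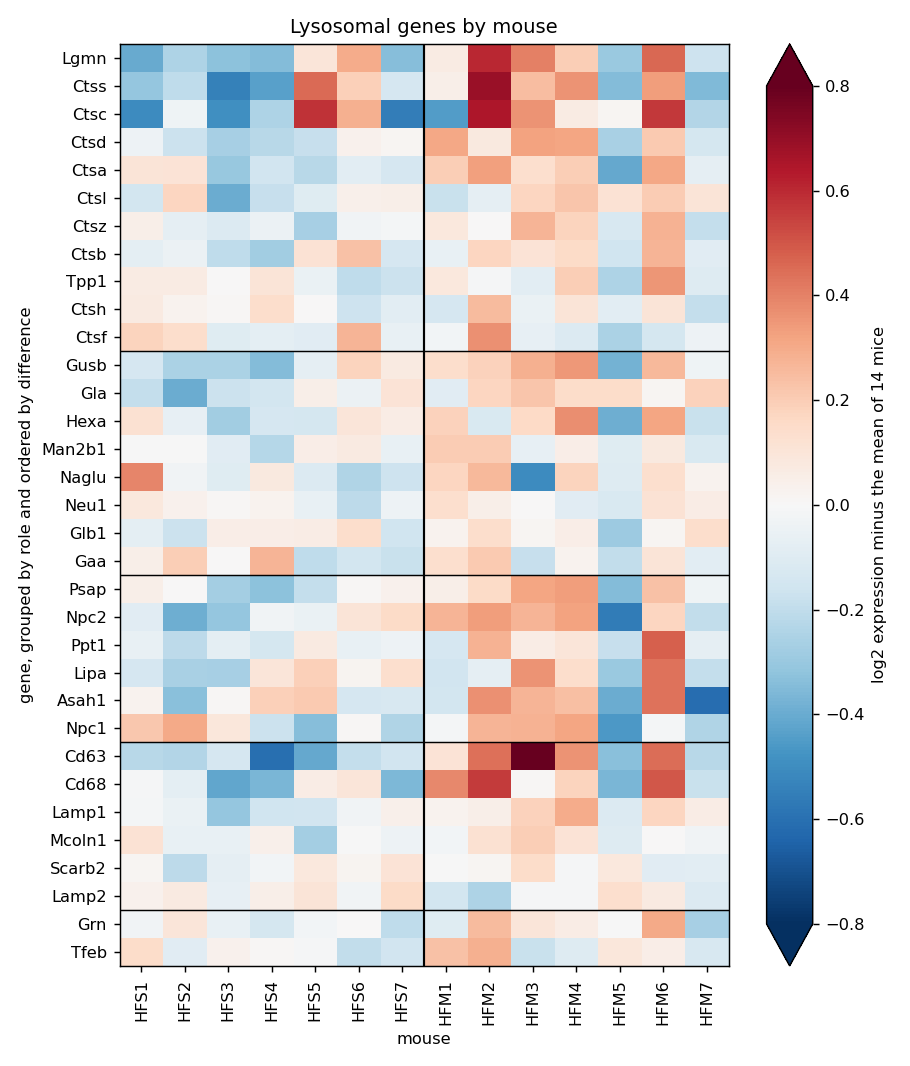
Log2 expression of the 33 lysosomal genes in each mouse relative to the mean of 14 mice (red above, blue below), with genes grouped by role and ordered by difference within it. HFM2, HFM3, HFM4 and HFM6 are mostly red, HFM5 and HFM7 mostly blue, and the rows of Lgmn, Ctss and Ctsc are also red in HFS5 and HFS6.

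Because macrophages carry many lysosomes, each gene was also set against markers of these cells. A macrophage index was the mean over 10 Kupffer cell and macrophage markers (Clec4f, Vsig4, Timd4, C1qb, C1qc, Csf1r, Cd163, Mpeg1, Lyz2 and Aif1), each relative to its mean over 14 mice. It holds none of the 33 genes and none of the macrophage genes in the study's own lists. All 10 markers had differences above 0 with a median of 0.26, and Mpeg1 and C1qb reached an unadjusted p under 0.05. The index ran from -0.23 to 0.74 in HFM mice and from -0.45 to 0.56 in HFS mice, a difference of 0.25 (exact permutation test, p = 0.227). It was highest in HFM2, at 0.74, followed by HFS5 at 0.56, HFM6 at 0.43, HFM3 at 0.27 and HFS6 at 0.20.

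In a limma fit of group and index together, Ctsc, Ctss and Lgmn varied with the index between mice of the same group, and the other 30 genes did not pass an adjusted p of 0.05. A rise of 1 log2 unit in the index went with 1.02 log2 units of Ctsc (standard error 0.15; limma adjusted p = 0.00175), 0.87 of Ctss (standard error 0.14; adjusted p = 0.00632) and 0.74 of Lgmn (standard error 0.12; adjusted p = 0.00429). Without HFM2 or without HFS5, which had the highest index of their groups, Ctss did not pass (adjusted p = 0.0711 and 0.0642). Across the array 0.419% of probe sets rose with the index at this threshold and 0.0214% fell, against 3 (9.09%) and 0 of the 33 genes. At an unadjusted p under 0.05, 8 of the 33 genes rose with the index (4.03% of all probe sets) and 0 fell (3.62%). The others of the 8 were Cd68 at 0.58 (standard error 0.15; adjusted p = 0.167), Asah1 at 0.55, Ctsb at 0.35, Ppt1 at 0.34 and Grn at 0.27 log2 units per unit of the index. Lamp1 had a slope of 0.01 (standard error 0.11), Gla of 0.09 (standard error 0.12) and Ctsd of 0.12 (standard error 0.14). Markers of another cell type went with the index too, as 5 of 8 neutrophil markers rose with it at an unadjusted p under 0.05. Of these 1, Ngp, a granule protein named here after its value was seen, rose at an adjusted p under 0.05. Whether the index is particular to macrophages was not tested.

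**Figure D4:**
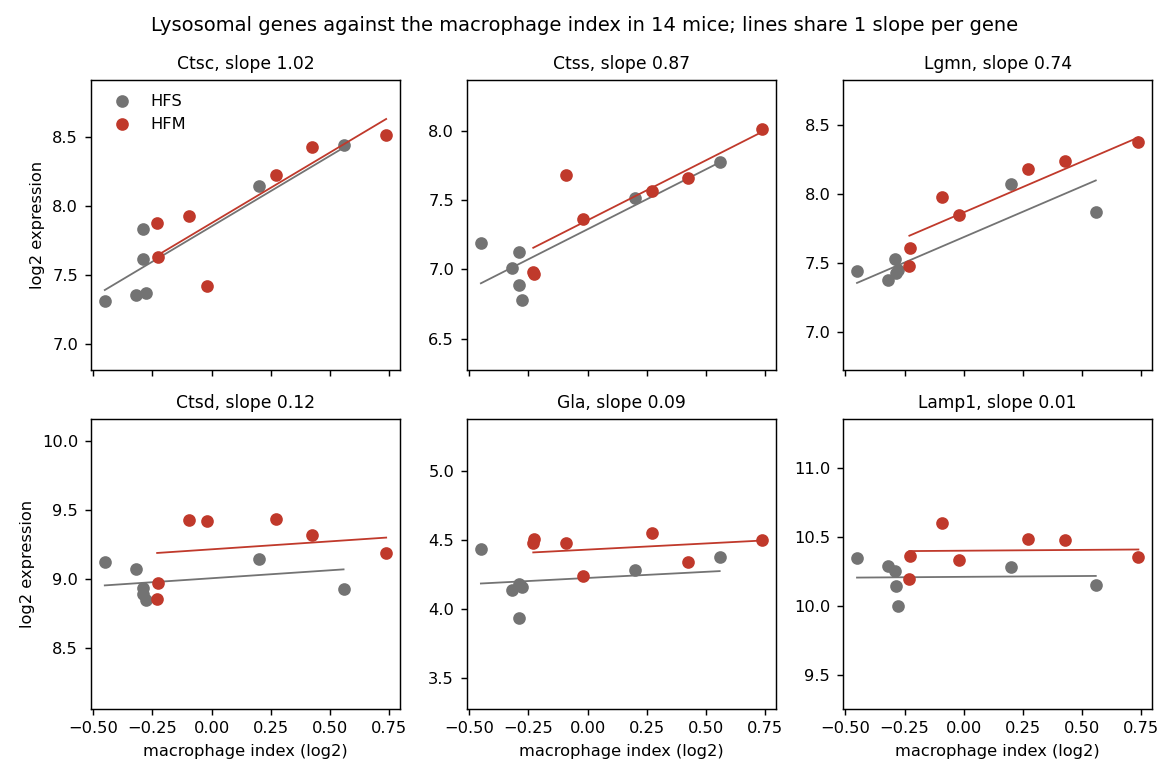
Log2 expression of 6 lysosomal genes against the macrophage index (mean log2 level of 10 markers relative to 14 mice) in HFS (gray) and HFM (red) mice, with all y axes spanning the same range; lines are the fit of group and index with 1 slope per gene. Ctsc, Ctss and Lgmn climb with the index in both groups, while for Ctsd, Gla and Lamp1 the lines are nearly flat, with slopes of 0.12, 0.09 and 0.01.

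With the index as a covariate the group difference of Lamp1 was 0.19 (standard error 0.08), as it was without it, and that of Gla went from 0.23 to 0.21 and that of Ctsd from 0.24 to 0.21. Those of Ctsc and Ctss went from 0.28 to 0.02 and from 0.28 to 0.07, that of Lgmn from 0.36 to 0.18, that of Cd68 from 0.31 to 0.17 and that of Cd63 from 0.56 to 0.46. Of the 33 genes 4, namely Cd63, Gla, Lamp1 and Lgmn, passed an unadjusted p of 0.05 as higher in this fit (12.1%; 1.96% of all probe sets) and 0 were lower (1.70%), while Ctsd lay just past the threshold (unadjusted p = 0.051). The adjusted p of each of the 33 genes was 0.999 with the covariate, and no probe set passed 0.05 (0%). The median difference of the 33 genes was 0.06 with the covariate, and 27 were above 0, where 51.1% of all probe sets did. Whether more macrophages or more RNA per macrophage went with the index was not tested.

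**Figure D5:**
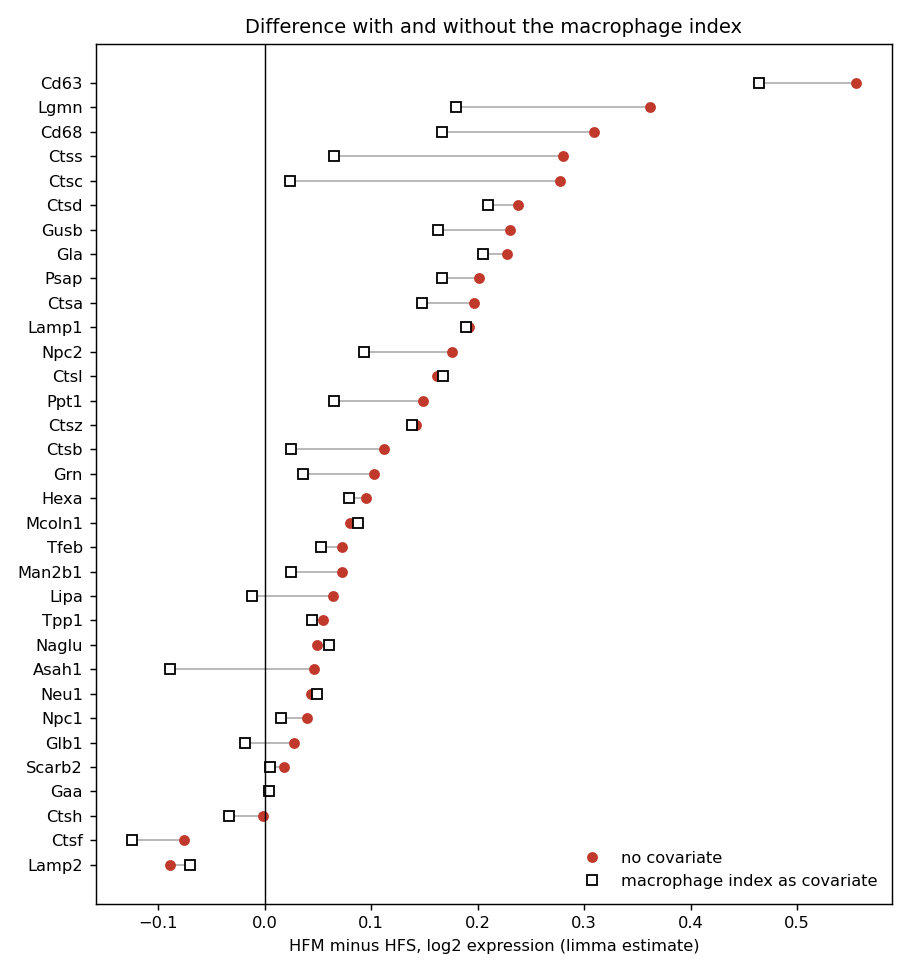
Difference in log2 expression (HFM minus HFS) of the 33 lysosomal genes from limma without a covariate (red circles) and with the macrophage index as a covariate (open squares), ordered by the first. The gap is widest for Ctsc, from 0.28 to 0.02, and the symbols nearly coincide for Lamp1, at 0.19 in both.

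Other genes of the lysosome had mostly small differences in the same comparison. A further list of 24 measured genes held mostly hydrolases, but also Gm2a, Hgsnat and Pcyox1, which are not. Of the 24, 22 were above 0 with a median of 0.08, and 2 passed an unadjusted p of 0.05 as higher. These were Arsa, the arylsulfatase of sulfatide, by 0.35 (standard error 0.12) and Acp5, the tartrate-resistant acid phosphatase, by 0.21 (standard error 0.09). Of 20 further membrane proteins, 13 were above 0 with a median of 0.04, and 1, the amino acid transporter Slc38a9, was higher by 0.20 (standard error 0.09). Laptm5, a lysosomal membrane protein of leukocytes, differed by 0.35 (standard error 0.17) and did not pass. It rose with the macrophage index by 0.85 log2 units per unit (limma adjusted p = 0.0235). Laptm5 was also in a gene category that the study drew from these samples, so its direction is not independent of that choice. The vacuolar ATPase, the pump that acidifies the lysosome, had 14 of 16 measured subunits above 0 with a median of 0.07, and 0 passed in either direction. No gene in any of these lists was lower at this threshold with limma. Over all probe sets tested, 51.4% lay above 0, 3.57% were higher and 2.90% lower.

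Among genes that deliver enzymes to lysosomes, 14 of 21 were above 0, and 1, Gga2, an adaptor for mannose 6-phosphate receptors, was higher by 0.17 (standard error 0.07). Of the relatives of TFEB and the mTORC1 components that sit on the lysosome, 14 of 18 were above 0 with a median of 0.09. Mlst8, a subunit of mTORC1, was higher by 0.24 (standard error 0.08) and Lamtor1, the anchor of the Ragulator complex, by 0.22 (standard error 0.09). Of 21 autophagy genes, 18 were above 0 with a median of 0.04, and 1, the lipid kinase Pik3c3, was higher by 0.21 (standard error 0.08). Of the cystatins and stefins, which inhibit cysteine cathepsins, 2 of 6 were above 0 with a median of -0.05, and 0 passed. Over these 7 lists, 0 genes passed an adjusted p of 0.05 with limma.

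Markers of other cell types were counted in the same comparison, where 3.57% of all probe sets were higher and 2.90% lower at an unadjusted p under 0.05. No hepatocyte marker of 8 passed an unadjusted p of 0.05 in limma (median 0.04), while 1 of the 8 did in the exact permutation test. None of 8 neutrophil markers (median 0.11) or 5 T and NK cell markers (median -0.05) passed in either test. Sinusoidal endothelium had 4 of 7 markers above 0 (median 0.07), and 1, the scavenger receptor Stab1, was higher by 0.18 (standard error 0.07). Stellate cells and fibroblasts had 6 of 7 above 0 (median 0.20), and 1, the growth factor receptor Pdgfrb, was higher by 0.22 (standard error 0.09). Of 3 B cell markers, 2 were above 0 (median 0.00), and 1, the receptor component Cd79a, was lower in limma, with a difference of -0.24. In the exact permutation test 0 of the 3 passed an unadjusted p of 0.05. The 6 macrophage genes of the study's lists all lay above 0 with a median of 0.45, and 4 were higher, but the study chose them on these samples.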

How the data were processed

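The authors hybridized liver RNA of each mouse to an Affymetrix Mouse Gene array and summarized it in Expression Console. They deposited log2 expression that had been normalized across arrays, by RMA per the labels and by PLIER per the paper's methods; the version and genome build are not stated there. No batch or scan date is given. Tests covered every probe set that GEO's platform annotation ties to a gene symbol (23410 of 35556, 21789 with exactly 1) in R 4.3.3 with limma 3.58.1 (lmFit, eBayes), with no filter on signal and Benjamini-Hochberg adjustment over all of them. A probe set with 1 symbol stood for each gene, the one with the highest mean. Exact permutation tests were two-sided over all 3432 assignments of the mice, with a smallest p of 0.000583.

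The genes, lists and tests were chosen with earlier results of these data known. Full values are given for genes with an unadjusted p under 0.05, the 3 with the widest spread, Tfeb, Lamp1 and Ctsd, and from each other list at most the 3 smallest p. Genes of these lists without a probe set of their own were not analysed here. Motifs were looked for on both strands. The fits were also tested on simulated arrays with known changes. The number of arrays, and not a count of reads, limits the precision, and 0 value columns were left out.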

Additional observations from a re-analysis of the deposited data

How the results depend on the processing

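Results were recomputed with quantile normalization, with array medians subtracted, on probe sets brighter than the median, with array weights, with a trended robust prior, without moderation, with other choices of probe sets (1 per gene, all, or averaged per gene), with the replicate block, with the index as a covariate or taken over the study's macrophage genes, by exact permutation, and leaving out each mouse. No group difference of the 10 genes given in full, and no slope of Ctsc, Ctss and Lgmn, changed sign under those run on it; slopes of the other genes were not recomputed. The count of 7 higher genes (3.57% of all probe sets) was 11 with array weights (4.46%), 5 after quantile normalization (3.22%) and 4 with the index as a covariate (1.96%). It ran from 5 to 13 with a mouse left out, 13 without HFM5 (5.4%). The 1 gene past the filter of the methods became 0 among the brighter probe sets, where Cd63 is not included, 0 with the unmoderated test, 0 with the covariate and 4 with array weights, and ran from 1 to 7, with 7 without HFM5, 3 without HFM7, and 2 without HFS6 or without HFS7. Over all probe sets those past this filter as higher numbered 106, and 157 with array weights, 261 without HFM5, 204 without HFM7, 121 without HFS6, 116 without HFS7, 80 among the brighter probe sets, 48 with the unmoderated test and 37 with the covariate. With a mouse left out, 2 to 3 genes varied with the index; Ctss dropped out without HFM2, without HFS5 and with the unmoderated test (adjusted p = 0.0717). Lower genes and genes past an adjusted p of 0.05 numbered 0 throughout. After array medians were subtracted, 1265 probe sets were higher and 397 lower at an unadjusted p under 0.05, so that 76.1% of those past it were higher and not 55.2%, and among the 33 genes 9 were higher. Among the brighter probe sets this share was 71.0%, and 5 of 31 genes were higher, against 4.55% of probe sets. Cd68 fell short of an unadjusted p of 0.05 in 11 of 26 alternatives and Gusb in 16 of 26, the exact test included, while Cd63, Gla, Lamp1 and Lgmn passed in every alternative that included them and Ctsd in all but the covariate.

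The replicate number as a block gave 0 genes that varied with the index, with a slope of 0.76 for Ctsc (limma adjusted p = 0.107). It gave 7 higher genes (3.13% of all probe sets), of which 6 were among those named. Same-numbered mice correlated at -0.20 to 0.14 in their deviations from the group means. Of the 7 pairs 1 was over 0.1, and 0 HFM mice correlated best with their own number. These correlations showed no pairing by number, but they cannot exclude one.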
